A study of Mus musculus with 2 samples.

Results

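MHC class II high general capillary cells were the lung capillary endothelial barcodes in which at least 3 UMIs (unique molecular identifiers, 1 per captured transcript) of Cd74, H2-Aa and H2-Ab1 were counted. They numbered 1722 in the aWT library and 189 in the aKO library, 1911 of the 27041 barcodes in all. A barcode, which stands for 1 captured cell or rarely more, had to show at least 500 genes and at most 15% mitochondrial UMIs. Its summed UMIs of Glp1r, Sema3c, Adgrl3 and Aplnr, which mark general capillary cells, had to reach 3 and make up at least 60% of its UMIs over these and the aerocyte, arterial, venous and lymphatic marker sets. Barcodes with 2 or more UMIs of Esm1 and Gzmk, or 3 or more of Mki67 and Top2a, were left out. The general capillary barcodes with fewer than 3 class II UMIs, 6739 in aWT and 4307 in aKO, are called class II low here. Members were thus chosen by their own UMI counts of these marker and class II genes, so their levels of the rule genes, and the contrast with class II low barcodes that the rule drew, are given as a description.

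Both libraries came from lungs of C57BL/6J mice aged 10 to 12 weeks, dissociated with dispase and sorted for tdTomato, a red fluorescent protein switched on by a cre recombinase under the VE-cadherin promoter, which is active in endothelium. By its title the series models hereditary hemorrhagic telangiectasia 2, a vascular disease caused by loss of the endothelial BMP receptor ALK1 (gene Acvrl1). The groups are named aWT and aKO in the sample titles, and the labels used here give neither the deleted gene nor any inducing agent, nor how many animals went into a library. There was 1 library per group, so no difference between them has a replicate check and no test was possible. All intervals are exact 95% intervals for counting error alone.

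MHC class II molecules carry peptides from the endosomal pathway to CD4 T cells. An alpha and a beta chain (H2-Aa with H2-Ab1, or the E chains) assemble with the invariant chain Cd74, which guides them to endosomes, where H2-DM exchanges the remaining invariant chain fragment for a peptide. Their transcription depends on the coactivator Ciita, which is recruited by RFX, CREB and NF-Y proteins bound side by side at the promoters. Professional antigen presenting cells are the main producers. General capillary cells of the lung, the capillary repair cells of the alveolar wall, are among the endothelial cells known to carry class II.

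The promoters of class II genes are shown because the genes measured beside the rule include members of this coordinately transcribed group. The sequences are the 250 bases before the annotated start, from RefSeq (GRCm38.p6), read in the gene's own direction. Capitals mark the letters AACTGATG, part of the X box bound by RFX and CREB, and ATTGG, the Y box bound by NF-Y, or their reverse complements.
H2-Eb1: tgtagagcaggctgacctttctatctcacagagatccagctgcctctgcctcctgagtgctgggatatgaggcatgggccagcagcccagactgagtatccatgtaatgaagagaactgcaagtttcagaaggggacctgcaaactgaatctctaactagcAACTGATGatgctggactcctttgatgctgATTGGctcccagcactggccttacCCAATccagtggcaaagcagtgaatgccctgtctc
H2-DMb1: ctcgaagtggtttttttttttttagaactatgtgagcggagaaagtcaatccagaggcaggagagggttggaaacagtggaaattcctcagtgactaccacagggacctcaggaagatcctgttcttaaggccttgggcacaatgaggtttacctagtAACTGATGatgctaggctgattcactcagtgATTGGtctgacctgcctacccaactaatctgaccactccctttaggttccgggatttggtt
H2-Aa: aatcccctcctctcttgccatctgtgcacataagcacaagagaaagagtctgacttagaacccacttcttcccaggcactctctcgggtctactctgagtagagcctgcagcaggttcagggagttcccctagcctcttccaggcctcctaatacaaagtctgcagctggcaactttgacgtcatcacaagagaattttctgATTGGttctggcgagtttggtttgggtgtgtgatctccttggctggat

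The H2-Eb1 stretch lies at chr17:34305617-34305866 on the plus strand, the H2-DMb1 stretch at chr17:34152941-34153190 on the plus strand and the H2-Aa stretch at chr17:34287824-34288073 on the minus strand. AACTGATG was followed by ATTGG after 22 bases in H2-Eb1 and after 23 bases in H2-DMb1. Across 32851 promoter entries of this length, on either strand, AACTGATG occurred in 222 (0.676%), ATTGG in 11120 (33.8%) and both in 79 (0.240%). The letters AACTGATG were chosen after the H2-Eb1 and H2-DMb1 stretches had been viewed, so their presence in those stretches is no finding. They shorten a longer form that was searched first and occurred in 44 entries (0.134%). The H2-Aa stretch held ATTGG without AACTGATG, and the 2 H2-DMa entries and the H2-DMb2 entry (not shown) did not hold AACTGATG either. X boxes of other letters were not searched, so these stretches are not shown to lack one. A match or its absence says nothing of binding.

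The 2 matrices held 15996 and 11045 barcodes and 72270260 and 75950364 UMIs, of which 15651 and 10785 barcodes passed the filter. Members were deeper than class II low barcodes, with medians of 4470 against 3348 UMIs in aWT and 6371 against 4511 in aKO. A rule on raw UMIs passes deep barcodes more easily, so comparisons below were repeated at equal depth. Xist, the RNA that silences an X chromosome in females, was at 3.43 CPM (UMIs of a gene over all UMIs of the group, scaled to 1000000) in aWT members and 731 in aKO members, and the Y-linked genes Uty and Ddx3y were at 117 and 99.9 CPM against 0 and 0. Sex and group therefore cannot be told apart. The libraries shared 48 barcode sequences, of which 3 were members in aWT and 1 in aKO.

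Endothelial and general capillary genes outside the rule were well measured in members. The summed level of 15 pan-endothelial genes was 22615 CPM in aWT members and 20213 in aKO members. The 8 general capillary genes outside the rule, among them the adhesion receptor Cd93 and the lipase anchor Gpihbp1, summed to 10806 and 6126 CPM, beside 10860 and 5700 in class II low barcodes. The 6 lymphatic genes outside the rule, led by Lyve1 (612 and 2436 CPM), ran the other way between the libraries, at 700 and 2701 CPM in members and 778 and 2940 in class II low barcodes. Markers of professional antigen presenting cells were mixed. The 9-gene macrophage list summed to 180 CPM in aWT members and 103 in aKO members, beside 27.2 and 2.74 in class II low barcodes, and to 23.7 and 0.742 without barcodes of 10 or more Sftpc UMIs. The 7-gene B cell list summed to 1.03 and 62.2 CPM, and 83 of its 85 UMIs in aKO members were in 1 barcode. Adgre1 and Marco, surface receptors of macrophages, and Itgax and Cd209a, surface proteins of dendritic cells, were at 0 in members of both libraries. The dendritic list still summed to 222 and 208 CPM, through Clec9a (114 and 45.4 CPM) and Zbtb46 (107 and 159), which were also found in class II low barcodes (132 and 60.9 CPM for Clec9a).

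Many members held UMIs of genes listed as markers of other cell types, and a few held many. At least 1 UMI of the leukocyte, macrophage, dendritic, B cell, T and NK or epithelial lists, other than Sftpc, Lyz2 and Scgb1a1, was found in 65.3% of aWT and 63.0% of aKO members. The dendritic list alone had a UMI in 59.1% and 60.8% of members, and in 50.9% and 52.8% of class II low barcodes. Settings below without barcodes holding any marker of another cell type therefore remove mostly members with dendritic-list UMIs, which need not be foreign. At least 10 UMIs summed over Sftpc, the surfactant gene of alveolar type 2 cells, and the leukocyte, macrophage, B cell, T and NK and mesenchymal lists were found in 10 aWT and 3 aKO members. In aKO, 1 of these held 83 B cell UMIs and 18 leukocyte UMIs together with 85 class II UMIs, the highest count of any member. Another held 121 mesenchymal UMIs, and the third held 1642 Sftpc and 139 macrophage-list UMIs. In aWT, 5 held 932 to 2376 Sftpc UMIs with 12 to 50 class II UMIs. Without the 10 and 3 barcodes, 1712 and 186 members remained, and Cd74 in aKO members went from 373 to 328 CPM. Other values without them are given beside results that they move most.

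Class II high cells made up a larger share of general capillary barcodes in aWT than in aKO. Of 8461 general capillary barcodes in aWT, 20.4% (19.5 to 21.2%) were members, against 4.20% (3.64 to 4.83%) of 4496 in aKO. The intervals, which cover counting error within a library and not differences between animals, were far apart although the aKO barcodes were deeper. With every barcode thinned to 2000 UMIs before the rule, which leaves shallower barcodes out, the shares were 10.2% (9.51 to 10.9%, 736 of 7214) and 1.13% (0.808 to 1.53%, 40 of 3544). The rule also sets general capillary membership by raw UMIs of genes that differed between the libraries, Glp1r at 546 against 226 CPM and Sema3c at 3069 against 1465 in members. With the capillary marker sum set to at least 2 the shares were 20.2% and 4.18%, at least 5 gave 20.7% and 4.33%, and at least 80% of the marker sums gave 20.4% and 4.34%.

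**Figure D1:**
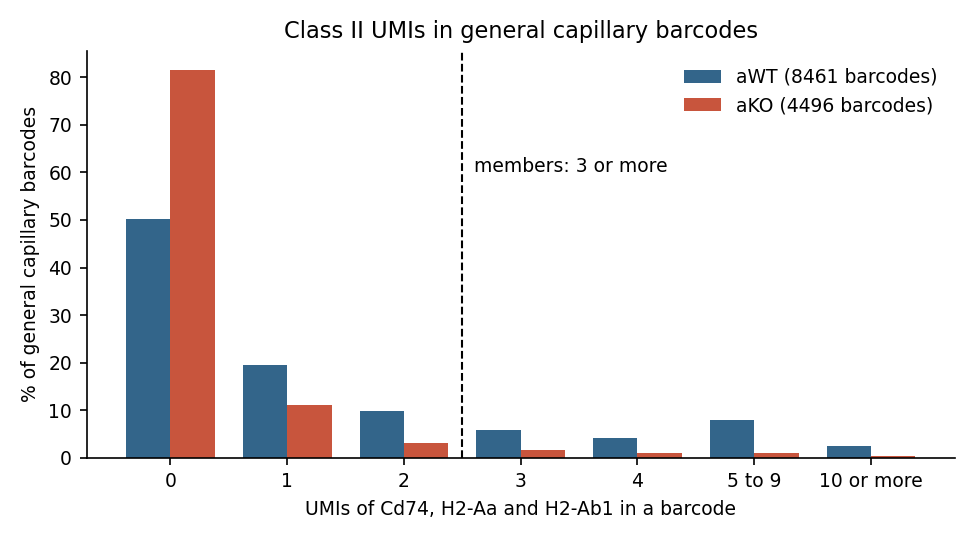
Percent of general capillary barcodes (y axis) by their UMIs of Cd74, H2-Aa and H2-Ab1 together (x axis), in the aWT library (8461 barcodes) and the aKO library (4496 barcodes). Bars are the shares, the dashed line is the threshold of 3 UMIs, and 50.3% of aWT against 81.5% of aKO barcodes held none.

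Class II UMIs ran without a gap through the threshold. In aWT, 50.3% of general capillary barcodes held no class II UMI, 825 held exactly 2 and 488 exactly 3. In aKO, 81.5% held none, 142 held exactly 2 and 73 exactly 3. Members had a median of 5 class II UMIs in aWT (highest 50) and 4 in aKO (highest 85), so the group is the upper range of a count without a separate peak. Counts this low cannot tell a graded level in the cells from separate low and high levels. At least 10 class II UMIs were counted in 213 aWT barcodes (2.52%) and 21 aKO barcodes (0.467%). The capillary side of the rule was rarely at its edge: 7 aWT members and 1 aKO member had exactly 3 capillary marker UMIs, and 3 and 1 barcodes that met the rest of the rule had exactly 2.

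The 3 rule genes were found together in many members. All 3 were counted in 743 aWT members (43.1%) and 64 aKO members (33.9%), and a single one in 165 (9.58%) and 23 (12.2%). H2-Ab1, the beta chain, was present in 83.7% and 81.0% of members, Cd74 in 78.3% and 66.7%, and H2-Aa, the alpha chain, in 71.6% and 74.1%. Cd74 was at 501 CPM in aWT members and 373 in aKO members, beside 35.4 and 6.28 CPM in class II low barcodes. H2-Aa was at 264 and 223 CPM in members and H2-Ab1 at 401 and 254, which the choice of members fixed.

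Among endothelial classes chosen in the same way from their own markers, and leaving out barcodes with 10 or more Sftpc UMIs, 3 or more class II UMIs were most frequent in venous and general capillary barcodes. In aWT the shares were 28.7% (25.8 to 31.7%) of 940 venous and 20.3% (19.4 to 21.2%) of 8445 general capillary barcodes. They were 3.96% of 530 lymphatic, 1.99% of 1054 arterial and 0.286% (0.115 to 0.588%) of 2448 aerocyte barcodes. Aerocytes are the second capillary cell type of the alveolus, specialised for gas exchange. Aerocyte barcodes had a median depth of 4632 UMIs in aWT, above the 3583 of general capillary barcodes. In aKO the order was venous 9.24%, general capillary 4.18%, lymphatic 2.81%, aerocyte 0.720% and arterial 0.602%, with venous barcodes at a median of 10330 UMIs and general capillary barcodes at 4613.

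After thinning to 2000 UMIs the aWT shares were 11.0% (9.03 to 13.3%) venous and 10.3% (9.61 to 11.0%) general capillary, whose intervals overlap. In aKO they were 1.52% (0.696 to 2.86%) and 1.11% (0.795 to 1.51%), which overlap too. Aerocyte barcodes had 0 of 2205 in aWT and 1 of 1036 in aKO. As a measure of free RNA in the droplets, Sftpc, which endothelium lacks, had a UMI in 44.8% of aWT members and 42.4% of aWT class II low barcodes, against 3.17% and 3.16% in aKO. Cd74 UMIs per Sftpc UMI were 0.203 in aWT and 0.905 in aKO class II low barcodes, which the rule holds below 3 class II UMIs, and 0.0175 and 0.0412 in the barcodes with 50 or more Sftpc UMIs.

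**Figure D2:**
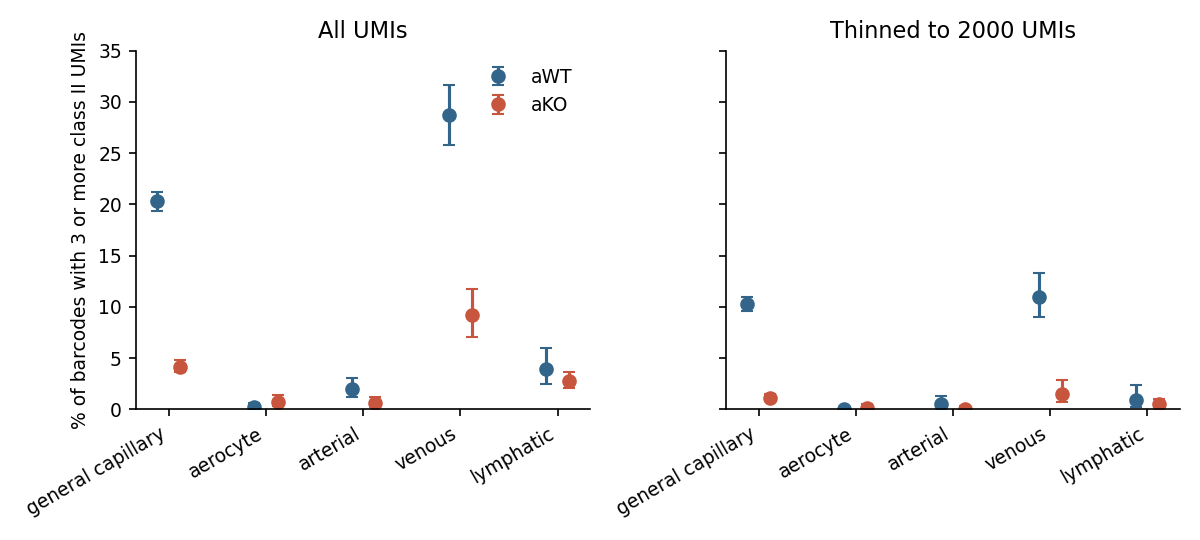
Percent of barcodes with 3 or more class II UMIs (y axis) in 5 endothelial classes, with all UMIs (left) and after thinning to 2000 UMIs (right), without barcodes of 10 or more Sftpc UMIs. Points are shares in aWT and aKO, bars are exact 95% intervals for counting error, and general capillary and venous barcodes lie above the other classes in aWT.

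Among class II genes that the rule did not use, the peptide exchange genes were higher in members than in class II low barcodes in both libraries. H2-DMa, the alpha chain of H2-DM, was at 54.6 CPM (49.8 to 59.7, 478 UMIs) in aWT members and 16.1 in class II low barcodes, a log2 ratio of 1.5. In aKO it was at 31.5 CPM (22.8 to 42.4, 43 UMIs) against 7.88, also a log2 ratio of 1.5. Log2 ratios are of CPM with 5 added, which understates the change of low genes. H2-DMb1, a beta chain of H2-DM, was at 54.0 against 12.8 CPM in aWT (log2 1.73) and 34.4 against 5.05 CPM in aKO (log2 1.97).

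The H2-DM genes remained higher at matched total UMIs. With class II low barcodes matched to members on total UMIs, the log2 ratios were 1.46 and 1.65 for H2-DMa and 1.78 and 1.59 for H2-DMb1 in aWT and aKO, the last below its unmatched 1.97. The second beta chain gene H2-DMb2 was at 8.11 against 2.14 CPM in aWT and 10.3 against 0.803 in aKO. H2-DMb1 and H2-DMb2 are near copies, so reads may have been split between them. At a mean of 5 CPM over the 4 sums, 3 of the 7 genes of this list were measured and all 3 were at least 1.5-fold higher in members in each library. Among all genes so measured, 0.281% in aWT and 2.20% in aKO were 1.5-fold higher and 0.339% and 1.91% lower.

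The E beta chain genes and H2-O were scarce. H2-Eb1 had 30 UMIs (3.43 CPM) in aWT members and 14 (10.3 CPM) in aKO members, 11 of them (8.45 CPM) outside the 3 barcodes. It made up 0.847% (0.572 to 1.21%) of H2-Eb1 and H2-Ab1 UMIs in aWT members and 3.88% (2.14 to 6.42%) in aKO members, or 3.21% without the 3 barcodes. In the barcodes with 50 or more Sftpc UMIs this share was 4.87% in aWT and 24.2% in aKO, higher than in members of the same library. It was also higher in class II low barcodes, at 1.55% and 4.62%, where the rule limits H2-Ab1. In venous barcodes with fewer than 10 Sftpc UMIs it was 0.615% and 18.3%, so a higher share in aKO was not particular to members. H2-Eb2, the second E beta gene, had no UMI in members of either library. H2-Oa and H2-Ob, which form the H2-DM inhibitor of B cells, had no UMI in aWT, and their 2 and 1 UMIs in aKO came from single barcodes that are not among the 186.

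By log2 ratio, regulators of class II transcription differed less. The 5 CPM added understates the ratio of the low gene Ciita, most in aKO. Ciita, the coactivator, was at 22.6 CPM (198 UMIs) in aWT members and 16.3 in class II low barcodes, a log2 ratio of 0.37, and at 8.79 (12 UMIs) against 2.55 CPM in aKO, a log2 ratio of 0.87. The depth-matched log2 ratios were 0.40 and 0.55. Ciita levels by the number of class II UMIs in a barcode, which rose in aWT, are given below. The other 6 measured factors, which bind the promoters in many cell types, were all within 1.5-fold in both libraries. Creb1, for example, was at 118 against 121 CPM in aWT and 85.0 against 96.0 in aKO. The 6 measured endosomal genes, which include the thiol reductase Ifi30 and the proteases Ctsb, Ctsd, Ctsl, Ctsz and Lgmn, were likewise within 1.5-fold in each library.

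Class I genes, which present cytosolic peptides, had a median log2 ratio of members over class II low of 0.33 in aWT and 0.34 in aKO over 22 measured genes, beside 0.01 and -0.01 over all genes. None reached 1.5-fold. H2-K1, a classical class I heavy chain, was at 2539 against 1920 CPM in aWT (log2 0.40) and 2283 against 1686 in aKO (log2 0.44). The depth-matched values were 0.41 and 0.44. H2-D1, the other classical heavy chain, was at 2328 against 1828 CPM in aWT and 5360 against 3643 in aKO. Class I heavy chain genes resemble each other closely, so the split of reads among them is uncertain.

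The interferon gamma list, genes induced by the cytokine that also induces Ciita, had medians of 0.12 in aWT and 0.36 in aKO over 20 measured genes. Of these, 0 and 3 were at least 1.5-fold higher in members, beside 0.281% and 2.20% of all genes. Ifi47, an interferon-induced GTPase, was at 87.0 against 66.0 CPM in aWT and 90.8 against 57.0 in aKO. The venous list had a median of 0.43 in aWT and 0.05 in aKO over 6 measured genes, but 0.01 and -1.26 at 2000 UMIs per barcode, and -0.08 in aKO without barcodes of other cell types.

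**Figure D3:**
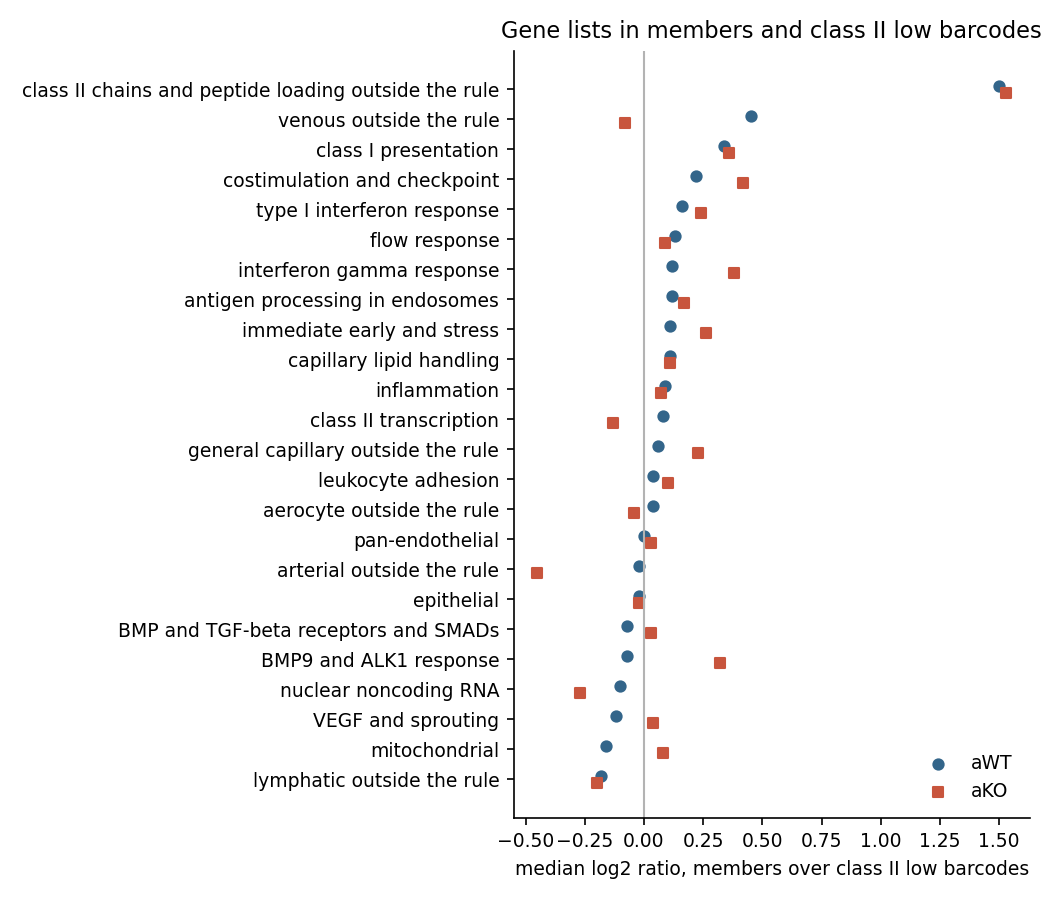
Median log2 ratio of members over class II low barcodes (x axis) for each gene list with at least 3 measured genes other than the class II rule, sex-linked and red cell lists, in aWT (circles) and aKO (squares), without barcodes of 10 or more UMIs of other cell types. The list of class II chains and peptide loading genes lies farthest right of those plotted at 1.5 and 1.53, and class I presentation lies at 0.34 and 0.36.

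The levels of H2-DMa and H2-DMb1 rose with the number of class II UMIs in a barcode, at each step in aWT. Among general capillary barcodes of 4000 to 6000 UMIs with fewer than 10 UMIs of other cell types, H2-DMa in aWT was at 9.61 CPM in barcodes with no class II UMI and 23.1 in those with 1 to 2. It was at 54.5, 64.9 and 77.4 CPM with 3 to 4, 5 to 9 and 10 or more. H2-DMb1 went from 7.60 to 105 CPM over the same steps. In aKO, H2-DMa was at 6.74, 16.6, 39.3, 81.1 and 67.0 CPM, the last 3 resting on 40, 15 and 6 barcodes, with an interval of 8.11 to 242 for the last.

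H2-K1 followed the same direction, from 1888 CPM in aWT barcodes with no class II UMI to 3150 in those with 10 or more, and from 1862 to 2478 in aKO. Prkg1, a cGMP-dependent protein kinase, ran the other way, from 953 to 383 CPM in aWT and from 510 to 268 in aKO. The aKO interval for Prkg1 in the last step, 116 to 528 CPM, spans its value in the first.

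**Figure D4:**
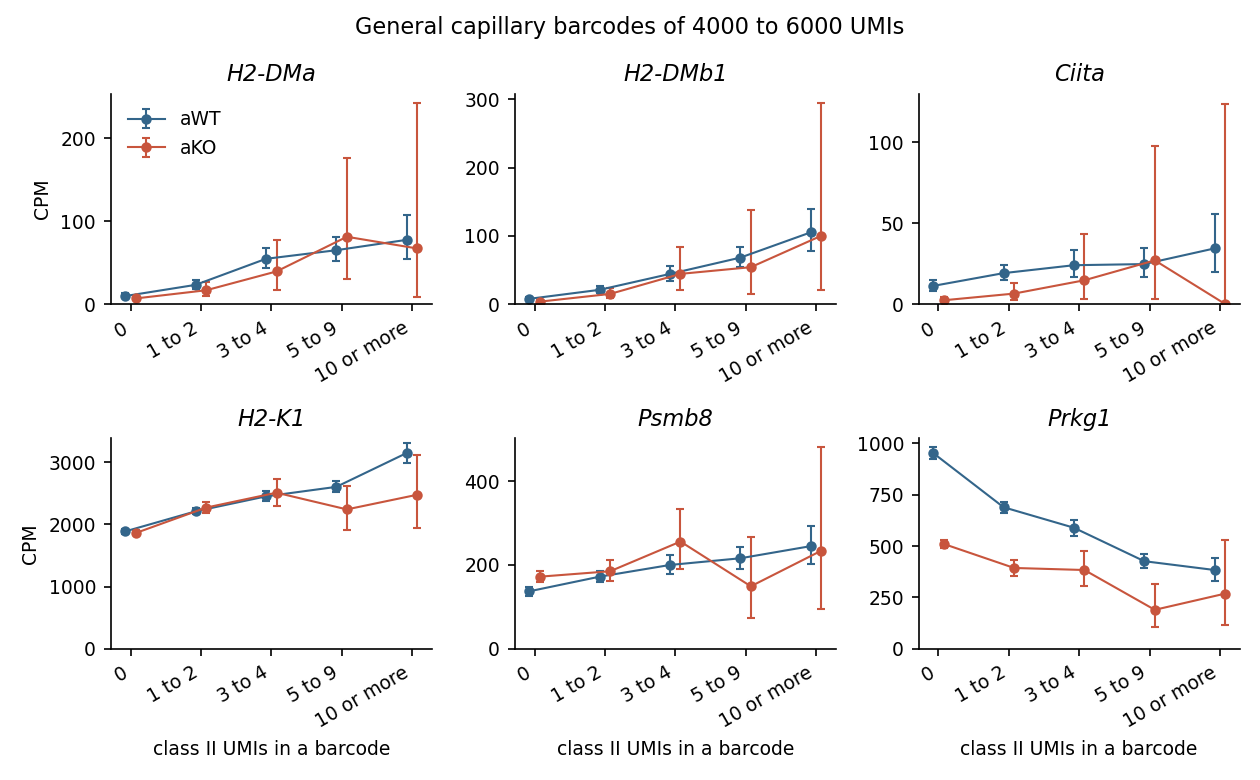
CPM (y axes) of 6 genes in general capillary barcodes of 4000 to 6000 UMIs, by class II UMIs in the barcode (x axes), for aWT and aKO. Points are summed levels and bars exact 95% intervals for counting error; H2-DMa rises from 9.61 to 77.4 CPM in aWT while Prkg1 falls from 953 to 383.

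Few genes of at least 50 CPM differed by 1.5-fold between members and class II low barcodes. The H2-DM genes lay under this minimum and no class I gene reached 1.5-fold, so the rule does not set antigen presentation apart. Of 4080 genes with a mean of at least 50 CPM, 3 (0.0735%) were at least 1.5-fold higher in members in both libraries and 0 (0%) lower. In aWT alone 6 were higher (0.147%) and 4 lower (0.0980%), and in aKO alone 31 were higher (0.760%) and 29 lower (0.711%). The 3 were Lyz2, Sftpa1 and Sftpc, genes of macrophages and alveolar type 2 cells. In aKO, 99.7% of the members' Sftpc UMIs and all of their Lyz2 UMIs came from 1 barcode. No gene was higher by this rule once barcodes with 10 or more UMIs of other cell types were left out.

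Smaller differences of one sign in both libraries included several membrane and signalling genes. Wfdc1, a secreted protease inhibitor family member, was at 96.7 against 66.2 CPM in aWT (log2 0.51) and 175 against 127 in aKO (log2 0.45), with depth-matched values of 0.50 and 0.48. Gja4, the gap junction protein connexin 37, was at 236 against 173 CPM in aWT (log2 0.43) and 43.2 against 23.8 in aKO (log2 0.74). Slc6a6, the taurine transporter, was at 196 against 128 CPM in aWT (log2 0.60) and 60.8 against 44.4 in aKO (log2 0.41). Ncoa7, Gas6, a ligand of TAM receptors, and Npc2, a lysosomal cholesterol carrier, had ratios of 0.44, 0.47 and 0.45 in aWT and 0.48, 0.92 and 0.52 in aKO. Npc2 was at 0.23 and -0.03 without the barcodes of other cell types. Cd81, a tetraspanin, had a ratio of 0.54 in both, but 0.21 and -0.24 at matched depth.

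Of the genes lower in members in both libraries, Prkg1 came first when each gene was ranked by whichever library's ratio lay nearer 0. It was at 580 CPM (564 to 596) against 928 in aWT (log2 -0.67) and 368 (336 to 401) against 547 in aKO (log2 -0.57). The depth-matched values were -0.77 and -0.69. Dll4, a Notch ligand of arterial and sprouting endothelium, was at 131 against 176 CPM in aWT (log2 -0.41) and 125 against 169 in aKO (log2 -0.42). Auts2, Setbp1 and Mctp1 had ratios of -0.56, -0.45 and -0.44 in aWT and -0.50, -0.51 and -0.50 in aKO. Without depth matching, none of these reached 1.5-fold in both libraries, and with it Prkg1 did.

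Between the libraries, class II high cells were compared gene by gene as sums of 8757263 UMIs in aWT and 1365485 in aKO. Of 4073 genes with a mean of at least 50 CPM, 118 (2.90%) had a level 2-fold or more higher in aKO members and 100 (2.46%) lower. With TMM factors from edgeR these counts were 83 and 121, which moves the share of higher genes among those called from 54.1% to 40.7%. The median log2 ratio of all genes moved from 0.07 to -0.07.

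Of the class II genes outside the rule, the main H2-DM chains and Ciita had lower levels in aKO members, and H2-DMb2 and H2-Eb1 did not. H2-DMa and H2-DMb1 had log2 aKO over aWT ratios of -0.71 and -0.58, and their CPM intervals, for counting error alone, did not overlap. The aKO members were deeper, and their rule genes summed to 850 CPM against 1166 in aWT. Among barcodes of 4000 to 6000 UMIs with 3 to 4 class II UMIs, H2-DMa was at 54.5 CPM in aWT and 39.3 (17.0 to 77.5) in aKO. H2-DMb1 was at 44.1 and 44.2. With 5 to 9 class II UMIs they were at 64.9 and 81.1, and at 68.0 and 54.0. At 2000 UMIs per barcode H2-DMa was at -0.07, and without barcodes holding any marker of another cell type H2-DMb1 was at -0.05. H2-DMb2 was at 0.22 and H2-Eb1 at 0.86. Ciita was at -1.0, with 12 UMIs in aKO, and at -1.50 in class II low barcodes. Over the class II genes outside the rule, transcription factors and endosomal genes included, the median was -0.12, beside 0.08 over all genes of at least 5 CPM.

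Among class I genes, 1 of 22 was at least 1.5-fold higher and 3 were lower in aKO members, where 10.0% of all genes of at least 5 CPM were higher and 5.94% lower. H2-D1 was higher (log2 1.20), and H2-Q7 (672 against 279 CPM, log2 -1.25), H2-T23 (396 against 215, log2 -0.86) and H2-T22 (103 against 66.6, log2 -0.59) were lower. H2-D1 UMIs per H2-K1 UMI were 0.917 in aWT members and 2.35 in aKO members, and 0.952 and 2.16 in class II low barcodes. Of the 21 measured interferon gamma genes, 0 were higher and 3 lower, with a median of -0.08. Cd40, a costimulatory receptor, was at 26.6 CPM in aWT and 76.2 in aKO members (log2 1.36).

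The response genes of BMP9 and ALK1 signalling were lower in aKO members. Of the 10 measured genes 9 were lower by 1.5-fold or more and 0 higher, with a median log2 ratio of -1.65 (-1.87 without barcodes of other cell types). Over all genes of at least 5 CPM in members, 10.0% were higher and 5.94% lower. In class II low barcodes 9 were lower as well, with a median of -2.29, where 8.66% of all genes were higher and 5.69% lower. Id1, an inhibitor of helix-loop-helix factors and a direct BMP target, was at 1260 CPM (1237 to 1284) in aWT and 70.3 (56.9 to 85.9) in aKO, a log2 ratio of -4.07. Id3, its relative, was at 1008 and 66.6 CPM (log2 -3.82), and Smad7, an inhibitor of the pathway, at 611 and 118 CPM (log2 -2.33). Both libraries held the receptors: Acvrl1 was at 1128 and 721 CPM (log2 -0.64) and its coreceptor Eng at 1099 and 677 (log2 -0.70). A 3' tag need not lie in a deleted part of a gene, so the Acvrl1 level does not check the label.

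Within aKO, 3 of the 10 measured response genes were at least 1.5-fold higher in members than in class II low barcodes and 7 were within 1.5-fold, with a median log2 ratio of 0.32, where 2.20% of all genes were higher. In aWT all 10 were within 1.5-fold. Id1 had 96 UMIs in aKO members, a level of 70.3 against 33.7 CPM (log2 0.96), and Id3 had 91, a level of 66.6 against 21.5 (log2 1.43). In aWT the ratios were 0.05 and 0.10. Single barcodes held 15.6% of the members' Id1 UMIs and 24.2% of their Id3 UMIs in aKO. The Id1 ratio was 0.78 without barcodes of other cell types, 0.93 at matched depth and -0.33 when barcodes were thinned to 2000 UMIs, which left 40 members. Among aKO barcodes of 4000 to 6000 UMIs, Id1 was at 29.3 CPM with no class II UMI, 36.0 with 1 to 2 and 167 (34 UMIs) with 3 to 4, and had no UMI in the 15 and 6 barcodes with more. Edn1, the vasoconstrictor endothelin-1, was at 34.4 against 10.9 CPM in aKO (log2 1.31) and 207 against 187 in aWT (log2 0.14). Cxcl12, a chemokine of general capillary cells, was at 193 against 82.8 CPM in aKO (log2 1.17) and 577 against 466 in aWT (log2 0.31). In aKO it did not rise evenly with class II UMIs. Over all aKO general capillary barcodes, of any depth, its level was 81.2 CPM with none, 89.8 with 1 to 2 and 165 with 3 to 4. It was 86.9 with 5 to 9 (47 barcodes) and 544 with 10 or more (21 barcodes). Within 4000 to 6000 UMIs and without barcodes of other cell types, Cxcl12 was at 83.2 CPM with none and 108 with 1 to 2. It was at 378 with 3 to 4 and 67.5 (5 UMIs) with 5 to 9.

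General capillary and arterial genes outside the rule were also lower in aKO members. Of 8 general capillary genes 5 were lower and 0 higher, with a median of -1.14, beside -1.32 in class II low barcodes. Cd93 was at 1504 and 520 CPM (log2 -1.52), the integrin Itga1 at 1702 and 753 (log2 -1.17) and the ligand Bmp6 at 1273 and 562 (log2 -1.17). Of 7 arterial genes 5 were lower and 0 higher, with a median of -1.12, and Gja4 was at 236 and 43.2 CPM (log2 -2.32). Without barcodes of other cell types the arterial median was -1.29. Over all genes, 10.0% were higher and 5.94% lower. Of the 21 immediate early and stress genes, which respond to tissue dissociation among other stimuli, 11 were lower and 2 higher in aKO members, and the chaperone Hspa1a was at 2736 and 701 CPM (log2 -1.96).

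Apart from S100a6, Igfbp5 and Ccl21a, the 12 genes with the highest aKO over aWT ratios in members had log2 ratios of at least 2.28 in class II low barcodes as well. St6galnac5, a sialyltransferase, was at 0.571 CPM (5 UMIs) in aWT and 360 (329 to 394) in aKO, with a log2 ratio of 6.04 in members and 6.62 in class II low barcodes. Hdac9, a histone deacetylase, was at 161 and 1533 CPM (log2 3.21), and Cd34, a sialomucin that binds selectins, at 97.4 and 619 CPM (log2 2.61). Lama4, a basement membrane laminin chain, was at 12.6 and 163 CPM (log2 3.25), and Fcgrt, the neonatal Fc receptor, at 26.0 and 212 (log2 2.81). Of 8 measured leukocyte adhesion genes, Cd34 among them, 4 were higher and 0 lower in aKO members, where 10.0% of all genes were higher and 5.94% lower. In class II low barcodes 4 were higher and 2 lower.

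Some of these ratios rested on 1 barcode. Igfbp5 had a log2 ratio of 2.85, but 96.2% of its aKO UMIs were in 1 barcode, and without barcodes of other cell types it was at -1.19. S100a6 was at 3.03, with 55.4% of its aKO UMIs in 1 barcode, and at 1.62 without barcodes of other cell types. Ccl21a, a lymphatic chemokine, was at 2.76, with 69.0% of its aKO UMIs in 1 barcode, and at 1.12 without barcodes called as doublets.

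**Figure D5:**
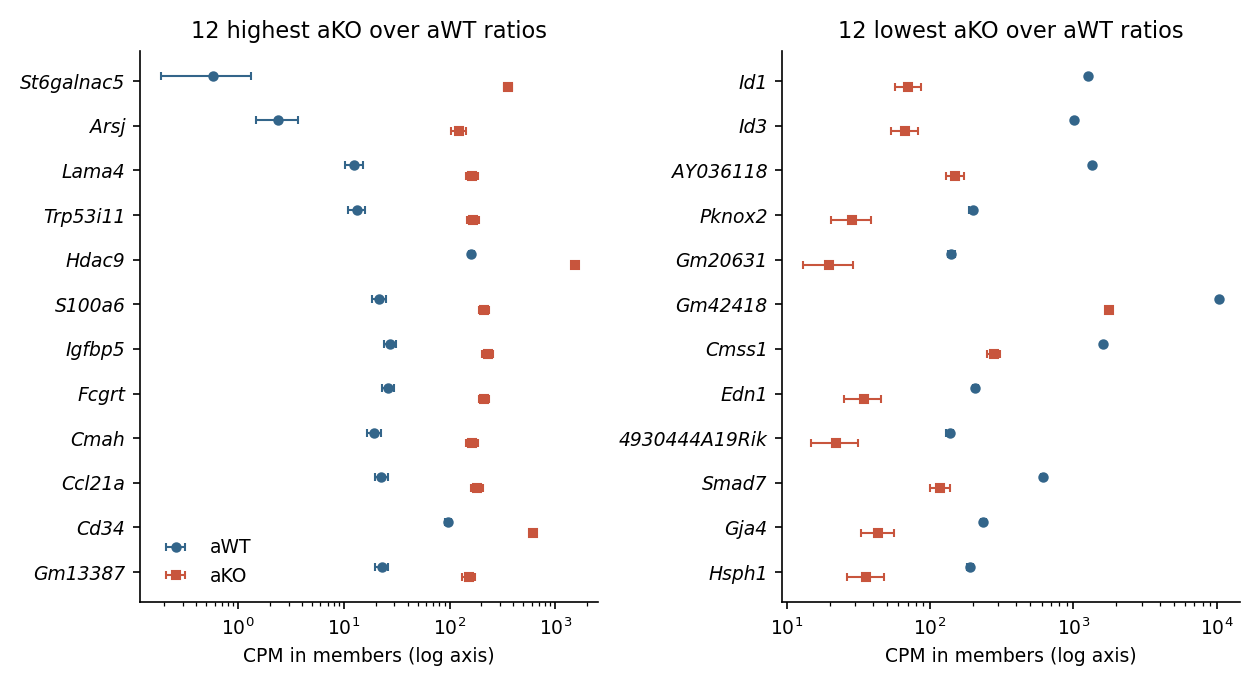
CPM in members (x axes, log scale) of the 12 genes with the highest (left) and the 12 with the lowest (right) aKO over aWT ratios, in aWT (circles) and aKO (squares). Bars are exact 95% intervals for counting error; St6galnac5 lies at 0.571 and 360 CPM, and Id1 at 1260 and 70.3 CPM.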

How the data were processed

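The deposited values are raw UMI counts, which the authors did not normalize. Per the submitters' processing notes Cell Ranger 7.2.0 and mm10 were used, and per the labels' protocols the libraries were single cell 3' v3. The gene annotation is not given in the sources used here, nor is the counting of introns. The members and gene lists were chosen with earlier results of these data known.

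Counts were summed over the barcodes of a group and library and divided by their total to give CPM, and log2 ratios were taken after adding 5 CPM. Gene counts by size used a mean of at least 50 CPM, gene lists 5 CPM and 1.5-fold. Rule genes were left out of the counts. Shares have exact Clopper-Pearson and CPM exact Poisson intervals at 95%, for counting error only. Genes named were the 12 highest and 12 lowest ratios in each comparison (sex-linked, haemoglobin, immunoglobulin, ribosomal protein and mitochondrial genes left out), from each list up to 4 by size, measured class II pathway genes, Acvrl1, Eng and rule genes. Coordinates and promoters were matched by symbol. H2-Aa, H2-Eb1, H2-DMa, H2-DMb1 and H2-DMb2 had promoter entries.

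Doublets were called with Scrublet through scanpy 1.11.5 but kept. At the default rate it called 0 aWT and 349 aKO barcodes, so the rate was set after seeing this to 0.8% per 1000 barcodes, which called 787 and 370, of which 79 and 3 were members. The X box letters were likewise chosen after promoters had been viewed, and shortened from a longer form. Other tools were Python 3.11.15, numpy 2.4.6, scipy 1.17.1, pandas 2.3.3, matplotlib 3.10.9, R 4.3.3 and edgeR 4.0.16 (TMM factors alone).

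The 2-fold rule for aKO over aWT in members was tested on simulated data of 3986 genes. All 50 genes raised 3-fold and all 50 raised 4-fold were recovered. Of 50 lowered 3-fold it found 34, and of 50 lowered 4-fold 29, since the others fell under the minimum mean of 50 CPM, so counts of lower genes are too small. It called 0 of 3823 unchanged genes. The simulation holds counting error alone.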

Additional observations from a re-analysis of the deposited data

Results flagged for a closer look

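For 2 genes the members lay on opposite sides of class II low barcodes in the 2 libraries, each by at least 1.5-fold, and the difference between libraries was not tested. S100a6, a calcium-binding protein, had a log2 ratio of members over class II low of -0.66 in aWT and 1.80 in aKO. Without barcodes of 10 or more UMIs of other cell types these were -0.20 and 0.45, and 1 removed aKO barcode held 160 S100a6 UMIs beside 121 mesenchymal UMIs. Ccl21a had log2 ratios of -0.75 in aWT and 1.18 in aKO, and of -0.26 and 0.27 without barcodes called as doublets.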

How the results depend on the processing

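No paired analysis was possible because each group is 1 library. The share of members was higher in aWT than in aKO in every setting run. It was 30.1% and 7.36% at 2 or more class II UMIs, 10.4% and 1.51% at 5 or more, 2.52% and 0.467% at 10 or more, and 11.7% and 1.40% at 10 or more per 10000 UMIs. It was 17.5% and 3.42% without barcodes holding a marker of another cell type, and 22.9% in aWT at 1000 genes and 10% mitochondrial UMIs. Thinned to 3000 UMIs it was 16.9% and 2.23%, and to 1500 UMIs 6.23% and 0.803%.

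Genes at least 2-fold higher and lower in aKO members numbered 356 and 218 at 2000 UMIs, and 383 and 227 with no minimum CPM. Those higher numbered 190 at a mean of 20 CPM and 75 at 100 CPM. Genes higher and lower in members than in class II low barcodes in both libraries numbered 7 and 8 as means over barcodes, 8 and 3 at 2000 UMIs, 8 and 1 at 20 CPM and 28 and 2 with no minimum, and 1 was higher at 100 CPM. Those lower numbered 5 without barcodes holding another cell type's marker, 1 with TMM factors and 2 with groups matched on UMIs. In alternatives added after seeing the data, 5 were lower against barcodes with no class II UMI, and 0 were higher without barcodes of 10 or more Sftpc UMIs or of 10 or more UMIs of other cell types.

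Some single genes changed direction. Id1 (-0.33) and C3 (-0.51), members over class II low in aKO, did so at 2000 UMIs, and Cd81 (-0.04), aKO over aWT, without barcodes holding another cell type's marker. Igfbp5 did so without those barcodes (-1.01 aKO over aWT, -2.54 members over class II low in aKO), at 2000 UMIs (-1.54 and -3.79) and without barcodes of 10 or more UMIs of other cell types (-1.19 and -2.78). The cause was not tested. Of 420 values for single genes under an alternative, 314 stayed within the spread set for them, 97 moved and 9 reversed. With 189 aKO members, genes at a few CPM rest on a handful of UMIs, and 1 barcode can set a value.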
